A study of Mus musculus with 2 samples.

Results

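Transcripts of 112 mouse genes of 2 enzyme families were examined, 92 cytochrome P450 (P450) genes and 20 glutathione transferase (GST) genes. They were the genes whose array name follows the standard pattern of a P450 symbol (Cyp, a family number, a subfamily letter and a gene number) or of a GST symbol (Gst, a class letter and a number). Together they held 156 of the 56593 usable probes and made up 112 of the 37068 gene names on the array. Olfactory bulb RNA of 1 mouse kept under odor-enriched conditions was compared with that of 1 mouse kept under standard odor conditions (control), each labelled with Cy3 and hybridised to 1 Agilent mouse expression array. The sources used here do not name the strain, the age, the sex or the odors. The labels speak of neurons of the bulb but give the bulb as the source and no sorting step, so the RNA was taken as that of whole tissue.

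P450 enzymes are haem proteins that insert an oxygen atom into fat-soluble molecules. Families 1 to 3 act mainly on foreign compounds, including many odorants, while most other families act on the body's own fatty acids, steroids, bile acids, retinoids and vitamin D. GSTs couple electrophiles to glutathione, which makes them soluble and ready for export. The lining of the nose is rich in both families and its enzymes modify inhaled odorants, whereas the bulb is the brain's first relay for odor signals and the place where axons from the nose end.

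In a P450 gene cluster on chromosome 7, 5 of 13 genes were seen above background in the control bulb but not in the odor-enriched bulb, and 6 in neither. Over all gene names, 7.29% were above background in the control array only and 1.21% in the odor-enriched array only. Dim genes had a higher bar to pass in the odor-enriched array. Of the 5, Cyp2a4, Cyp2g1, Cyp2a5 and Cyp2f2 were each read by 1 probe and allowed a bound on the fold. Cyp2b19 was too dim for one. The central 30 bases (positions 16 to 45) of the 60-base probes of those 4 are shown because the comparison rests on them, in the order of their mm9 positions chr7:27099880-27099939, chr7:27606111-27606170, chr7:27628169-27628228 and chr7:27918570-27918629, all on the plus strand.
Cyp2a4 probe: tcccgttgatcctgggctgcatgaggttaa
Cyp2g1 probe: ctttgtctttgccctgatattgaccagaat
Cyp2a5 probe: cttgcagaggatatttcaaaggtagccaaa
Cyp2f2 probe: gtgaaatacccgtcttatacgcacagaacc
Whether these stretches lie in coding exons or in untranslated regions is not given in the sources used here.

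Both probes of Cyp2j6, which had the largest difference among P450s measured on both arrays, are shown because they gave nearly the same value. They lie on the minus strand of chromosome 4 in mm9, at chr4:96183239-96183298 and chr4:96192532-96192591.
Cyp2j6 probe 1: aaatcctctgtctctatatgatttgattgt
Cyp2j6 probe 2: gggaagtagcaatggataccaatttgaatg
The Gstm1 probes are shown because the files place them on different chromosomes, at chr3:107815595-107815654 and chr5:117082490-117082549 in mm9, both on the minus strand. RefSeq has Gstm1 on chromosome 3.
Gstm1 probe 1: ttttcaaagatggcccactggagtaacaag
Gstm1 probe 2: agcctccccaggcctgtctcatctacaata

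Promoters were available from RefSeq (GRCm38.p6) for 89 of the 112 genes. In all, 3 are shown as the 250 bases before the annotated start: the neighbours Cyp2d10 (chr15:82407195-82407444) and Cyp2d11 (chr15:82394023-82394272), which were both lower in the odor-enriched bulb, and Cyp1b1 (chr17:79715062-79715311), all on the minus strand and printed 5′ to 3′ along the gene. Capitals mark the letters TATAAA (those of a TATA box when read along the gene) in both Cyp2d promoters. In Cyp1b1 they mark GCGTG, the core of the site bound by the aryl hydrocarbon receptor. Motifs were searched on both strands, and a match on the other strand appears as its reverse complement. The Cyp2d10 match and the first Cyp2d11 match read TTTATA and so lie on the other strand, as does the Cyp1b1 match.
Cyp2d10 promoter: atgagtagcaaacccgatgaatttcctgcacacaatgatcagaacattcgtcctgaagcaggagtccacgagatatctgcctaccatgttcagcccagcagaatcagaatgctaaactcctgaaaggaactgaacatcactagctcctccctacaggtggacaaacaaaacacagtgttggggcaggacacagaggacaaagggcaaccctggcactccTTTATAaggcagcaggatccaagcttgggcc
Cyp2d11 promoter: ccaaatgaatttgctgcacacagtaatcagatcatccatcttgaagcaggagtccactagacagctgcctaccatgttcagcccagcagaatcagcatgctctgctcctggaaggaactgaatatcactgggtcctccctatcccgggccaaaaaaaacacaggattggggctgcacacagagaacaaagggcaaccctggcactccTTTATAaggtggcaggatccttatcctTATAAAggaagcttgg
Cyp1b1 promoter: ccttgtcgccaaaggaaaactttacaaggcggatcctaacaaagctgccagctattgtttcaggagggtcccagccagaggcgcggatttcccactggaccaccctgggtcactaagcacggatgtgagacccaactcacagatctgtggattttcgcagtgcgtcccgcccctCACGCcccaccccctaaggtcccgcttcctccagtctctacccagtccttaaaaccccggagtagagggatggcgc
The Cyp2d10 and Cyp2d11 stretches carried the same letter at 203 of 234 aligned bases (86.8%). TATAAA lay 31 to 26 bases before the start in Cyp2d10, and 43 to 38 and 16 to 11 bases before it in Cyp2d11. GCGTG lay 76 to 72 bases before the start of Cyp1b1. TATAAA occurred in 26 of 71 P450 promoters (36.6%) and 3 of 18 GST promoters (16.7%), beside 14.3% of all 27025 genes with a promoter. GCGTG occurred in 19.7% of the P450 and 22.2% of the GST promoters, beside 30.9% of all. The antioxidant response core TGACNNNGC occurred in 4.23% of the P450 and 16.7% of the GST promoters, beside 11.5% of all. These matches describe letters within the window and not binding.

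Levels below are log2 processed signals minus the 75th percentile of the array's probes, so a level of 0 is that percentile, and differences are in log2 units with the control level subtracted from the odor-enriched one. The number of arrays limits the precision: with 1 array a group there are no replicates and no test, and a threshold of 2-fold (1 log2 unit) only describes these 2 bulbs. In the odor-enriched array 67.6% of spots were well above background, against 73.7% in the control array. The error that the scanner software assigns to a member's difference had a median of 0.20 and a highest value of 0.39. The pooled SD of the difference between probes of a member was 0.54 over the 17 members read by several probes, and 13 of these had all probes on the same side of 0. None of these errors holds the spread between mice.

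Of the P450 genes, 42 were well above background on both arrays (45.7%, beside 64.4% of all gene names), 12 in the control array only, none in the odor-enriched array only and 38 on neither. Among the 42, 15 were at least 2-fold lower in the odor-enriched bulb (35.7%, beside 5.52% of all 23872 genes measured on both arrays) and 4 were at least 2-fold higher (9.52%, beside 11.5% of all genes). The median P450 difference was -0.21, beside 0.00 for all genes, and the differences ran between -2.18 and 1.62. Of the GST genes, 18 were measured on both arrays, and Gsta2 and Gstt4 on neither. Of these, 3 were at least 2-fold lower (16.7%) and none was 2-fold higher, but 17 of 18 lay below 0 (94.4%, beside 49.9% of all genes) and the median was -0.78. These shares depend on the scaling. The authors' deposited matrix values put the median of all genes at 0.33 and 2.44% of them 2-fold lower. With those values the P450 median turned to 0.12 with 8 genes 2-fold lower. The GST median was -0.45 with none 2-fold lower. Background correction by normexp, which damps dim probes, left 9 P450s 2-fold lower, beside 2.61% of all genes. Scaling on the E1A spike-in probes put the median of all genes at -2.12 and all 42 P450s and 18 GSTs below 0, so every direction given here is relative to the other genes of the array.

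**Figure D1:**
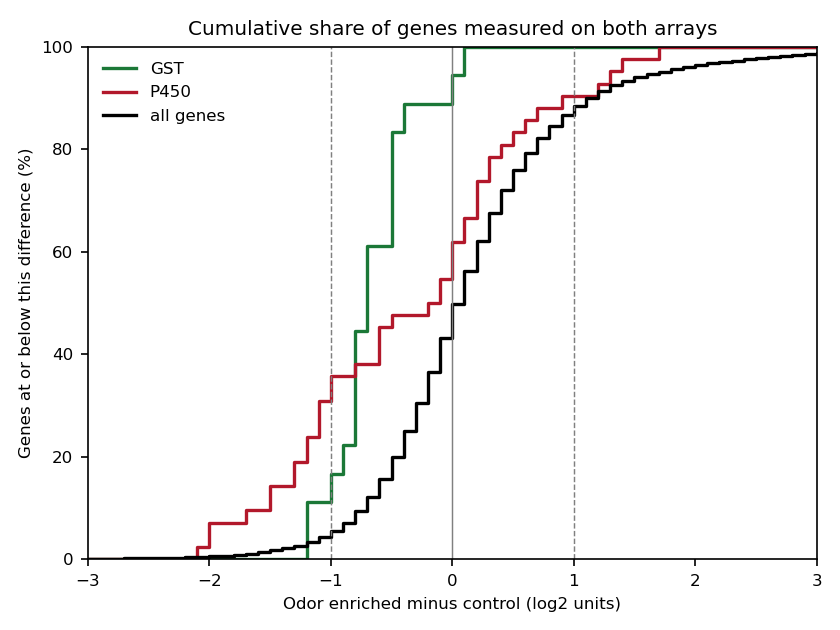
Cumulative share of genes (vertical axis, percent) at or below each difference (horizontal axis, odor enriched minus control, log2 units) for 18 GSTs, 42 P450s and all 23872 genes measured on both arrays; dashed lines mark 2-fold. The GST curve is steep and almost wholly left of 0 (17 of 18 genes), while the P450 curve lies above that of all genes on the left, with 15 of 42 genes beyond the left dashed line. With the deposited matrix values the P450 median is above 0 (0.12), but that of all genes is then 0.33.

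Among P450s of families 1 to 3, the chiefly xenobiotic group, 23 of 57 genes were measured on both arrays, leaving out the vitamin D enzyme Cyp2r1. Of these, 10 were at least 2-fold lower (43.5%, beside 5.52% of all genes), 3 were 2-fold higher (13.0%, beside 11.5%), and the median was -0.68. Another 7 were above background in the control bulb only. The remaining families with Cyp2r1 had 19 of 35 genes measured, with 5 lower (26.3%), 1 higher (5.26%) and a median of -0.02. Their median thus lay close to that of all genes, but their share 2-fold lower was above the 5.52% of all genes. Whether the groups differ was not tested.

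The 2d subfamily, which oxidises many basic drugs and amines, had 7 of 9 genes measured, with a median of -1.39. Of these, 5 were 2-fold lower (71.4%, beside 5.52% of all genes). Cyp2d10 had a level of -2.93 in the odor-enriched bulb, against -0.84 in the control bulb, a difference of -2.09 (4.26-fold lower). Cyp2d11 had 0.79 in the odor-enriched bulb, against 2.32 in the control bulb (-1.53). Cyp2d22, often treated as the mouse counterpart of human CYP2D6, had -0.94 in the odor-enriched bulb, against 0.57 in the control bulb (-1.51). These genes were thus 2.85-fold to 4.26-fold lower in the odor-enriched bulb. Cyp2d12 (-2.34 in the odor-enriched bulb, against -0.95 in the control bulb) and Cyp2d13 (-3.87 against -2.58) differed by -1.39 and -1.29. Both were dim, and after normexp their differences were -0.69 and -0.18, while that of Cyp2d10 was -0.96. Cyp2d26 was -0.68 over 2 probes that gave -1.24 and -0.11, and Cyp2d40, the highest of the subfamily, was 0.17. The other Cyp2d40 probe was above background in the odor-enriched array only (signal 10.7, against 2.86 in the control array). It gave 2.21 and was not used.

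The 2j subfamily, epoxygenases and hydroxylases of polyunsaturated fatty acids, had 5 of 6 genes measured. Of these, 3 were 2-fold lower (60%, beside 5.52% of all genes) and 1 was 2-fold higher (20%, beside 11.5%). Cyp2j6 had a level of -1.28 in the odor-enriched bulb, against 0.90 in the control bulb. Its difference of -2.18 (4.53-fold lower) was the lowest of all P450s measured, and the probes printed above gave -2.23 and -2.12. Cyp2j8 had 1.46 in the odor-enriched bulb, against 2.85 in the control bulb (-1.39). Cyp2j9 had 0.44 in the odor-enriched bulb, against 1.73 in the control bulb (-1.29, with probes at -1.63 and -0.96), and normexp left -0.87. Cyp2j11 went the other way, with -4.01 in the odor-enriched bulb, against -5.63 in the control bulb (1.62, 3.07-fold higher). Its raw signal was 12.5 in the odor-enriched array, against 5.04 in the control array, near the lowest signal called above background (7.97 in the odor-enriched array and 4.85 in the control array), and normexp left a difference of 0.46. Cyp2j13 had probes on both sides of 0 (-1.51 and 0.26), and an unused probe, above background in the control array only, gave -2.34.

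**Figure D2:**
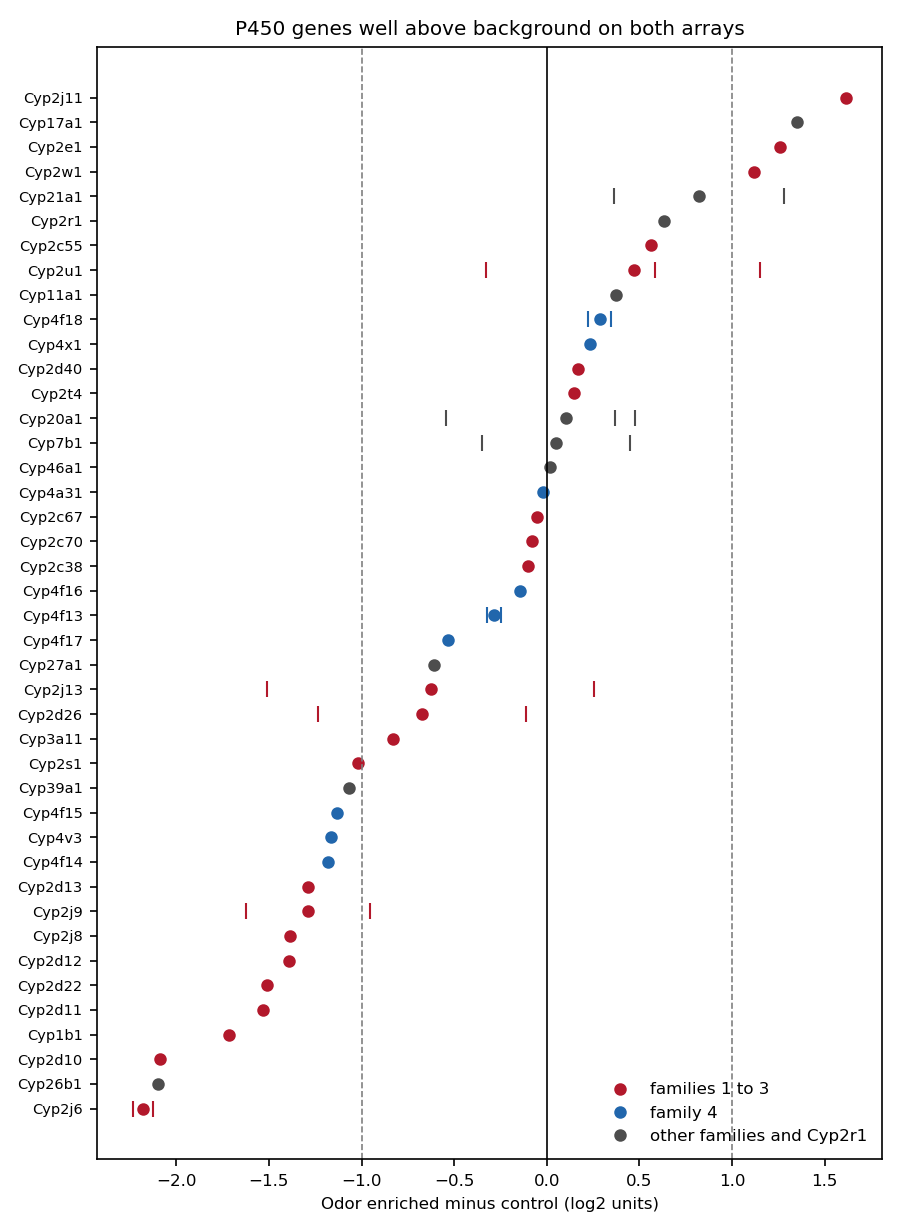
Difference of each of the 42 P450 genes measured on both arrays (dots, horizontal axis in log2 units, odor enriched minus control), coloured by family group; short ticks are single probes where a gene has several, and dashed lines mark 2-fold. There are 15 genes beyond the left dashed line, down to Cyp2j6 at -2.18, and 4 beyond the right one, up to Cyp2j11 at 1.62; with the E1A spike-in scaling those 4 fall below 0.

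Cyp1b1, which oxidises estradiol and aromatic hydrocarbons and is induced through the aryl hydrocarbon receptor, was the only family 1 gene above background. It had a level of -0.05 in the odor-enriched bulb, against 1.67 in the control bulb, a difference of -1.72 (3.29-fold lower). Cyp1a1 and Cyp1a2 were not well above background on either array. The repressor Ahrr, another target of the same receptor, had -4.31 in the odor-enriched bulb, against -2.99 in the control bulb (-1.32). That value came from 1 of its 2 probes. Its signal was 10.2 in the odor-enriched array, near the lowest called above background there (7.97). Tiparp, also a target of this receptor, differed by 0.34. The receptor Ahr and its partner Arnt differed by -0.06 and -0.07. Whether the receptor's targets share a direction was not tested.

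The 5 P450s listed as typical of the olfactory mucosa did not share a direction. Cyp2a5, the mouse coumarin hydroxylase, had a signal of 3.77 in the odor-enriched array, not well above background, against 61.4 in the control array, and was at least 6.20-fold lower. Its relative Cyp2a4, a testosterone hydroxylase, had 8.37 in the odor-enriched array, against 51.0 in the control array (at least 4.91-fold lower). Cyp2f2, known for naphthalene oxidation in airway cells, had 2.14 in the odor-enriched array, against 20.4 in the control array (at least 2.06-fold lower). Cyp2g1, known for its restriction to the olfactory mucosa, had 1.65 in the odor-enriched array, against 11.2 in the control array, where the bound is only 1.13-fold. Each bound sets the control level against the lowest normalised level above background in the odor-enriched array, or the probe's own where that was higher. Cyp1a2 was above background on neither array. Cyp2e1, which oxidises ethanol and acetone, went the other way, with a level of -1.28 in the odor-enriched bulb, against -2.54 in the control bulb (1.26, 2.40-fold higher), but normexp left 0.78 and no filter on dim probes 0.85, both under 2-fold.

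The 12 P450s above background in the control bulb only made up 13.0% of the P450 genes, beside 7.29% of all gene names. None was above background in the odor-enriched bulb only, beside 1.21% of all. Besides the 4 above, Cyp4a10 had a bound of 1.10-fold, and the other 7 (Cyp24a1, Cyp27b1, Cyp2b19, Cyp2c37, Cyp3a13, Cyp4a14 and Cyp4f39) had control signals between 5.11 and 9.77, too dim for any bound above 1. The lowest level called above background was -4.66 in the odor-enriched array, against -5.69 in the control array, so dim genes had a higher bar to pass in the odor-enriched bulb.

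Of the rest of families 2 and 3, the 2c genes were nearly level. Only 4 of 15 were measured on both arrays, with differences between -0.10 (Cyp2c38) and 0.56 (Cyp2c55). Cyp2s1, an epithelial P450, differed by -1.02, just past 2-fold, but by -0.21 under normexp, -0.68 with the matrix values, -0.94 with the percentile taken over detected probes and 0.00 without a filter on dim probes. Cyp2t4 differed by 0.15. Cyp3a11, the main drug-oxidising 3a enzyme of mouse liver, differed by -0.83. Cyp2w1 had -2.45 in the odor-enriched bulb, against -3.57 in the control bulb (1.12). That call held under 6 of 11 alternatives, with 0.57 under normexp, and its other probe, above background in the control array only, gave 0.08. Cyp2u1, a fatty acid hydroxylase, averaged 0.47 over 3 probes that ran between -0.33 and 1.15.

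Family 4, the fatty acid and leukotriene hydroxylases, had 9 of 16 genes measured, with a median of -0.28. Of these, 3 were 2-fold lower (33.3%, beside 5.52% of all genes) and none was 2-fold higher (beside 11.5%). Cyp4f14 had -0.65 in the odor-enriched bulb, against 0.53 in the control bulb (-1.18). Cyp4v3, the counterpart of a human gene mutated in a retinal dystrophy, had 1.10 in the odor-enriched bulb, against 2.26 in the control bulb (-1.17). Cyp4f15 had 1.83 in the odor-enriched bulb, against 2.96 in the control bulb (-1.13). All 3 stood just past 2-fold, and with the deposited matrix values they lay between -0.85 and -0.80. At the other end Cyp4x1 was at 0.23 and Cyp4f18 at 0.29.

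Among P450s of endogenous substrates, Cyp26b1, which degrades retinoic acid, stood lowest, with -1.65 in the odor-enriched bulb, against 0.45 in the control bulb (-2.10, 4.29-fold lower). Cyp39a1, which hydroxylates a brain-derived oxysterol, had 2.40 in the odor-enriched bulb, against 3.47 in the control bulb (-1.07, and -0.73 with the matrix values). Other sterol enzymes lay nearer 0: Cyp27a1 at -0.61, the neuronal cholesterol hydroxylase Cyp46a1 at 0.02, and Cyp7b1, an oxysterol hydroxylase, at 0.05 with probes at -0.35 and 0.45. The 3 steroidogenic enzymes measured lay above 0. Cyp17a1, the hydroxylase and lyase that leads to androgens, had 3.71 in the odor-enriched bulb, against 2.35 in the control bulb (1.35, 2.55-fold higher). Cyp21a1, of adrenal steroid synthesis, had -2.80 in the odor-enriched bulb, against -3.63 in the control bulb (0.82), and Cyp11a1, which starts steroid synthesis, was dim and differed by 0.37. Cyp2r1, which hydroxylates vitamin D, had 5.0 in the odor-enriched bulb, against 4.37 in the control bulb (0.63), and the orphan enzyme Cyp20a1 differed by 0.10.

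The GSTs were more alike than the P450s, in a range of -1.26 to 0.04. Gstk1, the GST of mitochondria and peroxisomes, had 2.34 in the odor-enriched bulb, against 3.60 in the control bulb (-1.26, 2.39-fold lower). All 7 mu-class genes, the main class in brain, lay below 0, with a median of -0.88. Gstm6 had 0.65 in the odor-enriched bulb, against 1.89 in the control bulb (-1.24, with probes at -1.65 and -0.83), and Gstm4 had 0.42 in the odor-enriched bulb, against 1.45 in the control bulb (-1.03). The brighter Gstm3 had 5.54 in the odor-enriched bulb, against 6.45 in the control bulb (-0.91). Gstm5 had 4.78 in the odor-enriched bulb, against 5.61 in the control bulb (-0.83). Gstm1 had 4.34 in the odor-enriched bulb, against 5.11 in the control bulb (-0.77), with -0.94 from its chromosome 3 probe and -0.59 from the probe placed on chromosome 5. Of the 7, only Gstm6 and Gstm4 passed 2-fold (28.6%, beside 5.52% of all genes 2-fold lower).

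The alpha-class genes Gsta4, which clears the lipid aldehyde hydroxynonenal, and Gsta3 differed by -0.88 and -0.79, and the 3 theta genes lay between -0.77 (Gstt3) and -0.59 (Gstt1). Gsto2 and Gsto1, omega enzymes that reduce dehydroascorbate, differed by -0.58 and -0.48, and Gstz1, of tyrosine breakdown, by -0.55. The pi class stood apart from this: Gstp1 had 1.77 in the odor-enriched bulb, against 1.86 in the control bulb (-0.09), and Gstp2 had 5.73 in the odor-enriched bulb, against 5.68 in the control bulb (0.04). Whether the classes differ was not tested. Under centring on the array median, which sets the median of all genes at -0.17, 7 GSTs were 2-fold lower, beside 8.63% of all genes.

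**Figure D3:**
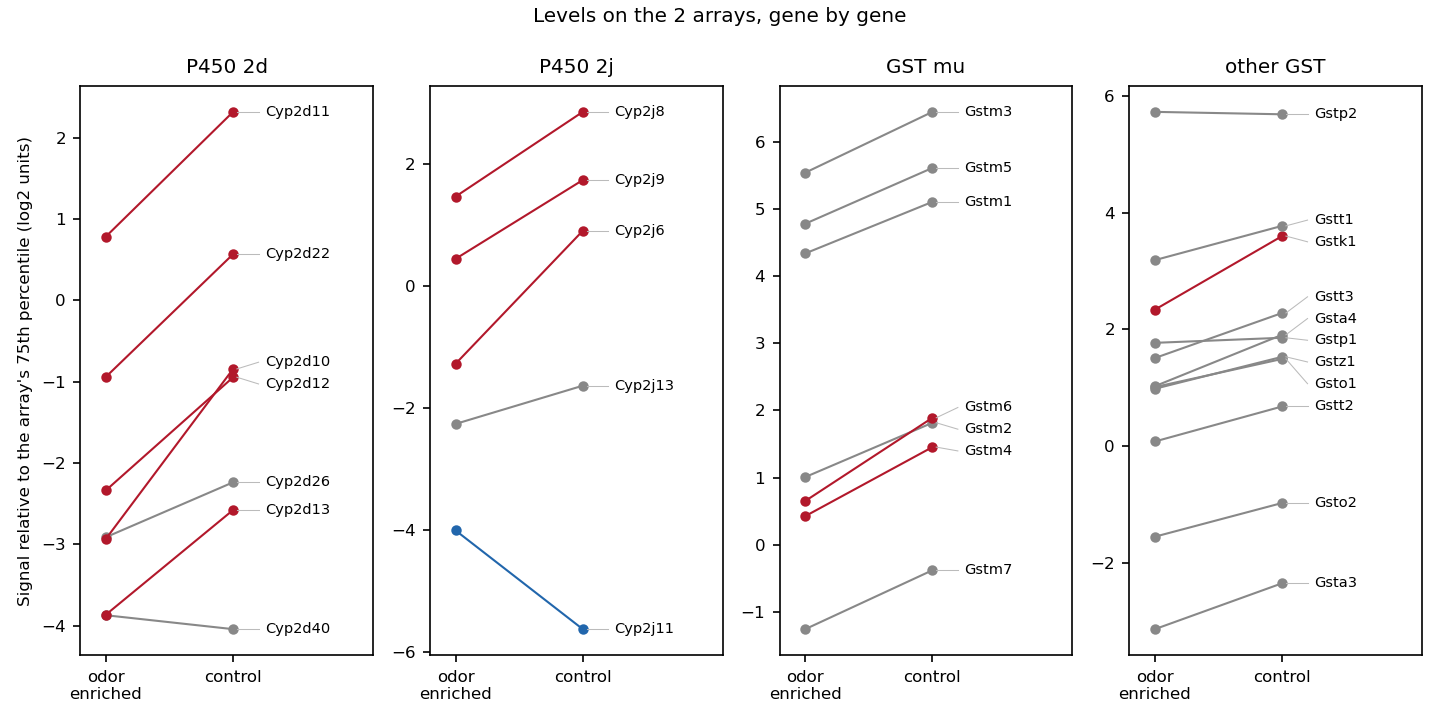
Levels of single genes (vertical axis, log2 signal over that 75th percentile; scales differ between panels) in the odor-enriched array (left) and the control array (right) for the 2d and 2j P450s, the mu-class GSTs and the other GSTs; red lines fall short of the control by 2-fold or more and the blue line exceeds it by as much. Red lines are 5 of 7 2d genes and 3 of 5 2j genes, beside 5.52% of all genes that were 2-fold lower. The mu lines are almost parallel, and both pi lines are flat. With the E1A spike-in scaling the difference of Cyp2j11, the blue line, is below 0.

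Many members sit side by side in the genome, so they were also read in chromosome order, from the mm9 positions of their probes. Over all 23872 genes measured on both arrays, 5.52% were 2-fold lower and 11.5% were 2-fold higher. Of all gene names, 7.29% were above background in the control array only. The Cyp2d cluster (chr15:82201687-82621829) held 9 genes, of which 5 were 2-fold lower, and Cyp2d22, Cyp2d11 and Cyp2d10 at one end were consecutive. The Cyp2j cluster (chr4:95709356-96295971) held Cyp2j8, Cyp2j6 and Cyp2j9 in a row, all 2-fold lower, next to Cyp2j11 with the opposite sign. In the Gstm cluster (chr3:107701101-107846847) all 7 genes lay between -1.24 and -0.77. In the Cyp4f cluster (chr17:32629616-33076896) all 5 measured genes lay below 0, and Cyp4f15 and its neighbour Cyp4f14 were 2-fold lower. In the Cyp2c cluster (chr19:39110063-40228028) 4 of 14 genes were measured and none passed 2-fold. The cluster of 2a, 2b, 2f, 2g, 2s and 2t genes (chr7:26587495-27943565) had 2 of 13 genes measured on both arrays and 5 in the control bulb only.

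**Figure D4:**
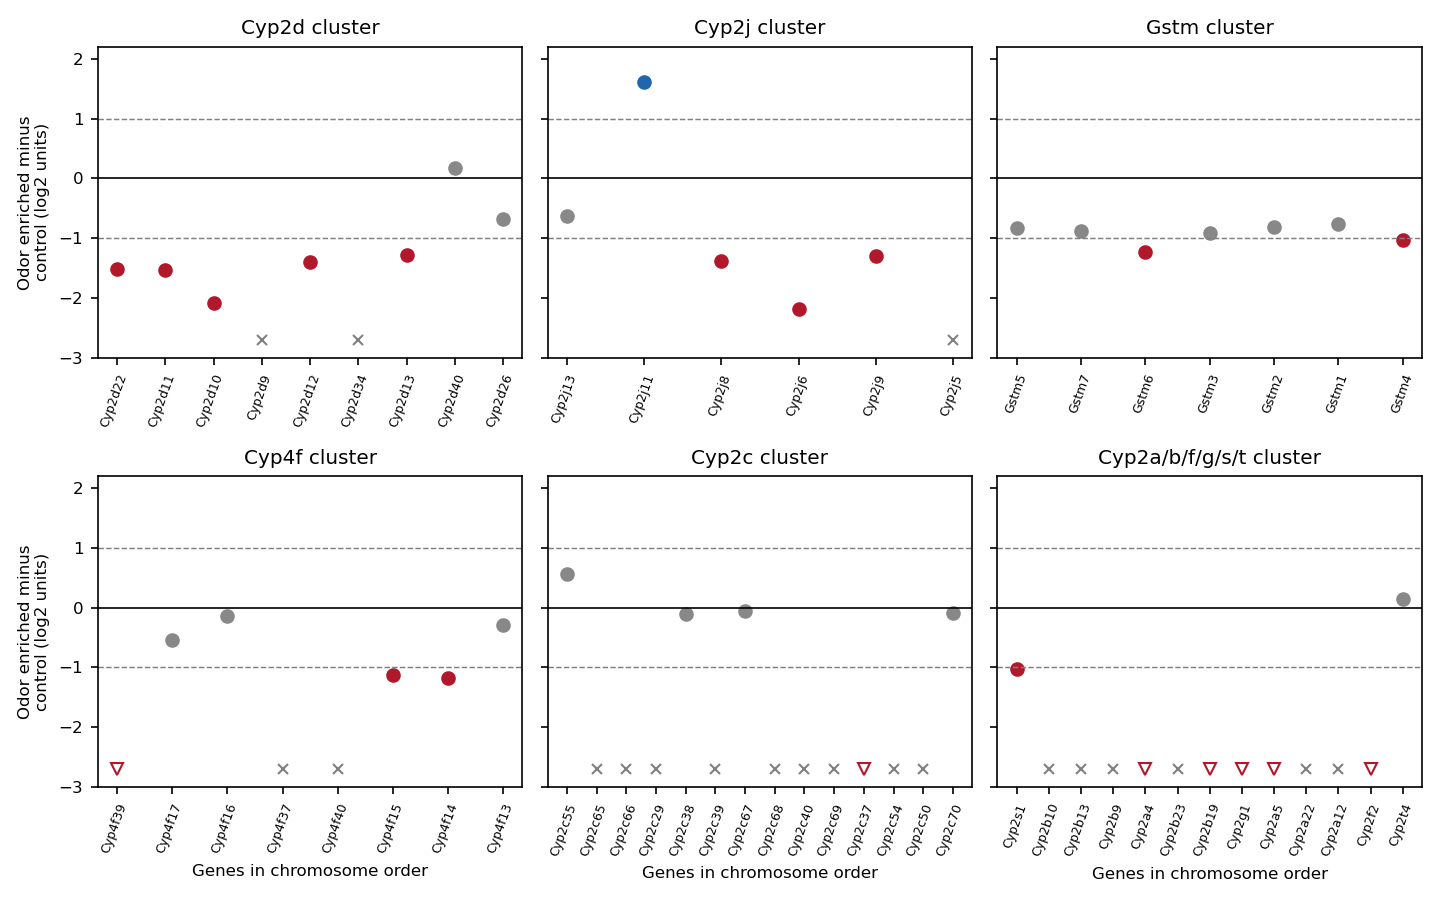
Differences (vertical axis, odor enriched minus control, log2 units) of the genes of 6 clusters in chromosome order (horizontal axis, evenly spaced); open triangles at the bottom are genes above background in the control array only, crosses are genes above background on neither array, and neither kind has a value. Runs of red dots (at least 2-fold lower) appear in the Cyp2d and Cyp2j clusters, and all 7 Gstm genes lie between -1.24 and -0.77.

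Neighbours of one subfamily are alike in sequence, and a probe may bind a relative's transcript. Overlapping probes that were nearly the same letters were found for Cyp2c67 and Cyp2c68 (55 of 59 shared bases) and for Cyp3a25 and Cyp3a57 (49 of 52). Of these, only Cyp2c67 was measured on both arrays, at -0.06. Cross-hybridisation between the Cyp2d, Cyp2j or Gstm genes was not tested.

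The other genes of the pathway were taken from a list of 57 that held no member. Of 51 measured on both arrays, 7 were 2-fold higher (13.7%, beside 11.5% of all genes), 6 were 2-fold lower (11.8%, beside 5.52%) and 28 lay below 0 (54.9%, beside 49.9%). Their median was -0.07, and whether they differ from the P450s or GSTs was not tested. Por, the reductase that passes electrons to microsomal P450s, had 3.36 in the odor-enriched bulb, against 4.51 in the control bulb (-1.14). The other electron carriers were at -0.51 (Cyb5a), -0.49 (Fdx1), -0.62 (Fdxr) and 0.19 (Cyb5r3), and the haem enzymes at 0.38 (Alas1) and 0.54 (Fech).

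Among regulators, Nr1i3 (the constitutive androstane receptor) had 5.56 in the odor-enriched bulb, against 3.21 in the control bulb (2.35), and Maff was at 1.11. Nr1i2, the pregnane X receptor, was above background on neither array. Nfe2l2, the master regulator of antioxidant genes, differed by 0.81 and its inhibitor Keap1 by -0.23. Its classical targets went both ways. Nqo1, a quinone reductase, had -1.21 in the odor-enriched bulb, against 0.69 in the control bulb (-1.90), while Hmox1, haem oxygenase, had 0.13 in the odor-enriched bulb, against -1.92 in the control bulb (2.06). The glutathione-making Gclc and Gclm were at -0.17 and 0.23, and G6pdx, a source of NADPH, at -1.03.

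Of the other conjugating enzymes, the sulfotransferase Sult1d1 stood lowest, with -3.88 in the odor-enriched bulb, against -1.60 in the control bulb (-2.29). The olfactory glucuronosyltransferase Ugt2a1 differed by -0.68. The membrane GSTs, unrelated in sequence to the soluble ones, were at -1.02 (Mgst1), -0.82 (Mgst3) and 1.12 (Mgst2). Other oxidising enzymes stayed within 2-fold, between Fmo1 at -0.85 and Fmo2 at 0.94. All 4 efflux pumps lay above 0: Abcc4 at 1.75, Abcg2 at 1.69, Abcb1a at 1.29 and Abcc1 at 0.68. The value of Abcc1 averaged 2 probes that gave -0.02 and 1.39.

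**Figure D5:**
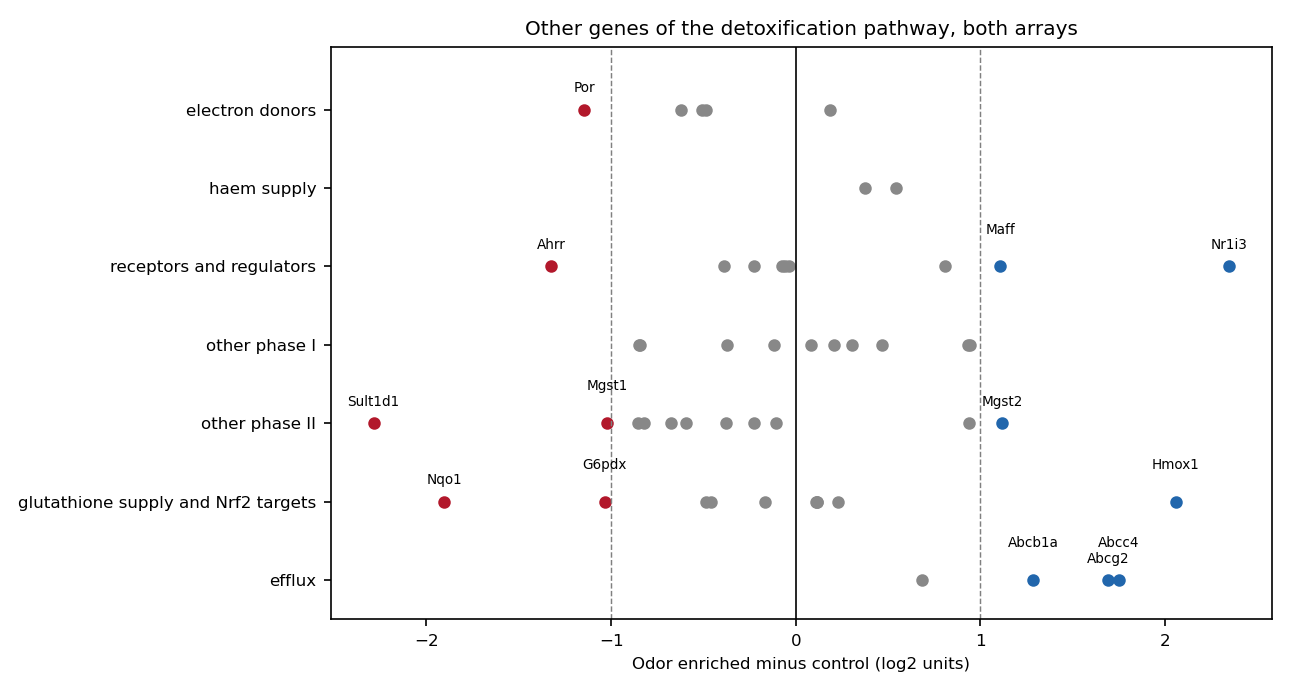
Difference (horizontal axis, odor enriched minus control, log2 units) of the 51 other pathway genes measured on both arrays, by sublist; dashed lines mark 2-fold, and genes beyond them are named. Efflux pumps lie right of 0 (4 of 4, Abcc1 with probes at -0.02 and 1.39), as do the haem enzymes (2 of 2). Electron donors lie mostly left of it (4 of 5), and the remaining sublists spread to both sides. With the E1A spike-in scaling the median of all genes is -2.12.

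Markers of several cell types were read beside these results. In bulk tissue, fewer cells of a type and less RNA per cell cannot be told apart. Olfactory sensory neuron markers were lower: 7 of 9 measured on both arrays were 2-fold lower (77.8%, beside 5.52% of all genes, median -1.51). Of these 7, Stoml3 averaged 2 probes that gave -3.67 and 0.71. The summed level of all 10 listed was 162 in the odor-enriched bulb, against 643 in the control bulb (units of the array's 75th percentile). Cnga4 was above background in the control bulb only. Olfactory ensheathing glia markers had 4 of 7 genes 2-fold lower (57.1%, beside 5.52% of all genes). Their summed level was 311 in the odor-enriched bulb, against 552 in the control bulb. Of 11 markers of sustentacular cells, glands and nasal epithelium, where the 2a, 2f and 2g P450s are abundant, 5 were measured on both arrays. Those 5 had a summed level of 3.17 in the odor-enriched bulb, against 2.71 in the control bulb. The summed level of all 11 was 3.25 in the odor-enriched bulb, against 2.99 in the control bulb. That direction rests on Cbr2: the other 10 summed to 0.583 in the odor-enriched bulb, against 0.908 in the control bulb. Those 10 include the genes above background in the control bulb only, which add to the control sum by their status. In that list Cbr2, Krt18 and Muc5b differed by 0.47, 0.31 and 0.02, and Obp1a and Cdh1 by -0.14 and -1.03. Sec14l3, Bpifb4, Scgb1c1 and Epcam were above background in the control bulb only, beside 7.29% of all gene names. Epcam was too dim for a bound, and dim genes had a higher bar to pass in the odor-enriched bulb. Cyp2a4, Cyp2a5, Cyp2f2 and Cyp2g1 were also above background in the control bulb only. They are the members reported above, which have that status only by being high there, so they add no result here. Obp2a and Reg3g were above background on neither array. Astrocyte markers, beside the mu-class GSTs, lay below 0 in 5 of 6 genes (83.3%, beside 49.9% of all genes, median -0.54). Gfap was at -2.13 and Aqp4 at 0.66, and the summed level of the list was 51.5 in the odor-enriched bulb, against 70.4 in the control bulb. Of 5 liver markers, Alb was above background in the control bulb only, Apoa1 and Fgb on neither array, and Serpina1a differed by -3.46 and Apoa2 by -0.46. Beside the efflux pumps, endothelial markers were higher, with 6 of 7 past 2-fold (85.7%, beside 11.5% of all genes). Their summed level was 62.6 in the odor-enriched bulb, against 29.3 in the control bulb. T and NK cell markers had a summed level of 17.3 in the odor-enriched bulb, against 1.11 in the control bulb. General neuron markers, which the labels' wording calls for, were all measured, with a summed level of 43.7 in the odor-enriched bulb, against 47.1 in the control bulb. Of the remaining lists, mural cells had 4 of 5 genes 2-fold higher (80%, beside 11.5% of all genes, median 2.09). Oligodendrocytes and microglia each had 1 of 4 genes 2-fold higher (25%, medians 0.43 and 0.22). Choroid plexus had 2 of 4 genes 2-fold lower (50%, beside 5.52% of all genes, median -0.65). Meningeal fibroblasts had none of 6 past 2-fold (median -0.18). The part of these cell types in the results was not tested.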

How the data were processed

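RNA of 1 odor-enriched and 1 control olfactory bulb was measured on 1 Agilent 1-colour array each. The extraction software was Agilent Feature Extraction 11.5.1.1, per the file headers. The authors deposited its processed signal, an intensity per spot with the background already subtracted within the array. Probe coordinates are mm9. The deposited series matrix holds log2 values that equal the log2 processed signal minus 1 constant per array within 0.01 for 99.9% of odor-enriched and 91.7% of control probes. Its column medians are -8.98 (odor enriched) and -9.48 (control), and the origin of the constants, and so the centring, is not given in the sources used here.

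Outlier-flagged spots (183 in the odor-enriched and 122 in the control array) were left out; no spot was saturated. Log2 processed signals were averaged per probe, and the array's 75th percentile over probes was subtracted (7.66 in the odor-enriched and 7.97 in the control array). Probes that were well above background on both arrays were averaged to give each gene's value. The 75th percentile, the flag and the 2-fold threshold applied to all 37068 gene names, not to the members alone. Of the 140 member probes with a RefSeq accession, 137 carry the same symbol in the RefSeq table (GRCm38.p6).

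Members, gene lists and markers were chosen with earlier results of these data known. Named were the 10 highest and 10 lowest P450s, the 6 highest and 6 lowest GSTs with the others by value or range, the 5 largest bounds of genes above background on 1 array, the olfactory mucosa P450s, the extremes of each list and other pathway genes past 2-fold; a few others were added after their values were seen. Alternatives changed the scaling, background correction (normexp, offset 50), filter, probe choice and threshold. Steps were tested on simulated data. Python 3.11.15, pandas 2.3.3, numpy 2.4.6, matplotlib 3.10.9, R 4.3.3 and limma 3.58.1 were used.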

Additional observations from a re-analysis of the deposited data

How the results depend on the processing

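No paired analysis was possible because each group holds 1 array and no label ties the mice, and no array could be left out. Of the 22 members at least 2-fold apart, 7 stayed so in the same direction under all 11 alternatives that kept the 2-fold threshold, leaving out scaling on the E1A spike-ins: Cyp1b1, Cyp26b1, Cyp2d11, Cyp2d22, Cyp2j6 and Cyp2j8 lower and Cyp17a1 higher. None of the 22 changed sign under those 11. Median centring gave 7 GSTs 2-fold lower. Normexp gave 1 P450 higher and 9 lower, beside 5.26% and 2.61% of all genes. The deposited matrix values gave 8 P450s lower with a median of 0.12, and no GST lower with a median of -0.45, beside a median of 0.33 for all genes. Probes above background on either array gave 25 of 54 P450s lower (beside 8.8% of all genes) and a median of -0.75 (beside -0.04). This setting let in the 12 P450s above background in the control array only. They could enter only by being high there, so their part in these values is no added result. Without a filter on dim probes 20 of 92 P450s were higher and 25 lower, beside 25.3% and 6.19% of all genes. The P450 median was then 0.10, beside 0.21 for all genes, and 1 GST was higher. The brightest probe gave a P450 median of -0.43, beside -0.035 for all genes. A 1.5-fold threshold gave 13 GSTs lower, beside 16.3% of all genes. A 3-fold threshold gave 1 P450 higher, 4 lower and no GST lower, beside 5.39% of all genes higher and 1.38% lower. The cause of these shifts was not tested.

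Scaling on the mean of 8 E1A spike-in probes put 90.2% of all genes 2-fold lower (median -2.12). It gave no P450 higher and 38 lower (median -2.33), 18 GSTs lower (median -2.90), and values of -0.77 for Cyp17a1, -0.86 for Cyp2e1, -0.50 for Cyp2j11 and -1.0 for Cyp2w1. One spike-in differed by 4.42 and the other 7 by 1.22 to 1.62, so the median over the probes was added after the values with the mean were seen. It put 83.7% of all genes lower (median -1.76) and gave no P450 higher and 37 lower (median -1.98), 18 GSTs lower (median -2.54), and -0.41 for Cyp17a1, -0.50 for Cyp2e1, -0.15 for Cyp2j11 and -0.64 for Cyp2w1. Over all genes, 11.5% were higher and 5.52% lower as reported, 8.95% higher and 8.63% lower under median centring, and 18.7% higher and 2.44% lower with the matrix values. Signal over background limits the dim members most: Cyp2s1 was 0.00 to -1.19 over the 11 alternatives and Cyp2d13 was -0.18 to -1.49.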

Other observations

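Some P450s and GST relatives carry names outside the symbol pattern. Cyp51, of cholesterol synthesis, had a level of -0.41 in the odor-enriched bulb, against -0.60 in the control bulb (0.19), and Tbxas1, thromboxane synthase, differed by 0.22. Ptgis, prostacyclin synthase, had -0.75 in the odor-enriched bulb, against -2.11 in the control bulb (1.36). Hpgds, the GST-related prostaglandin D synthase, differed by 0.48. Cyp4a12b and the pseudogene Cyp4b1-ps2 differed by -0.17 and -0.09. Cyp4a12a was above background in the control bulb only, with a level of -6.98 in the odor-enriched array, against -4.82 in the control array, too dim for a bound. These genes were chosen after their values were seen.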
